A study of Mus musculus with 17 samples.

Results

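The genes described here are those of mouse chromosome 5 that start between 60 and 110 Mb, on either side of a pair of neighbouring genes at 76655452 to 76696974. That pair had the largest fold changes between the 2 genotypes of the study among all tested genes of chromosome 5. Distances are counted from a centre just above it. By that rule, and leaving out the pair itself, the region holds 726 of the 41096 genes of the count table. The RNA came from hearts of mice aged 4 months, all labelled with the background strain C57BL/6. The groups were 4 female and 3 male WT mice and, of the genotype given as bsg, 5 of each sex. The title of the series names genetic cardiomyopathy as its subject. The labels do not say what the bsg allele is, how it was made, in which strain it arose or how often the line was backcrossed, and they name no treatment. Fragments of total RNA depleted of ribosomal RNA were counted per gene on the assembly C57BL_6NJ_v1. All positions below are on that assembly.

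When a mutant allele made in one mouse strain is bred into another, the chromosome segment around it travels with the selected allele, and its ends are set by where crossovers happened to fall. Genes inside such a segment can carry sequence variants of the donor strain that alter their own transcription, splicing or RNA stability. A changed allele can also alter its neighbours directly, through a shared enhancer, an inserted promoter or transcription that runs on into the next gene. None of these was measured here, and their part in the values below was not tested. The table gives genes by ID without names, and 0 of the IDs could be matched to a symbol. The genes are therefore described by position and structure, and markers of heart cell types could not be looked up.

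The libraries held between 13886399 and 17554850 fragments, of which the region took 0.787% to 0.846%. WT female replicate 2 and bsg female replicate 2 stood apart in the number of genes detected (20118 and 20589, against 18597 to 19438 in the other 15 libraries). The counts of called genes over both sexes and in each sex are therefore also given without these 2 libraries. Of the 726 genes, 323 had no count in any library and 228 had too few counts to test. The 175 tested genes lay between 64699067 and 109963629. Each of the 175 reached the filter level of 0.635 CPM in at least 1 library of each genotype. CPM are counts relative to the library total, which for all levels below is the TMM-scaled one. They are not divided by gene length, so they compare a gene between libraries, not genes with each other.

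Between bsg and WT hearts of both sexes, 27 of the 175 tested genes (15.4%) changed, 14 higher and 13 lower in bsg. The test was edgeR's quasi-likelihood test with Benjamini-Hochberg adjustment over all 15013 tested genes, and called genes are those with an adjusted p below 0.05. By the same rule 4.26% of all tested genes were called (2.14% higher and 2.12% lower), and 3.15% of the 794 tested genes of chromosome 5 outside the region (25 genes). Genes called with a change of at least 1.5-fold were 11 of the 175 (6.29%), against 1.01% of all genes. Those called with at least 2-fold were 4 (2.29%), against 0.440% of all genes. At an unadjusted p under 0.05 it was 55 of 175, against 18.3% of all genes. Whole hearts were measured, so fewer cells of a type and less RNA per cell cannot be told apart. Without WT and bsg female replicates 2, 25 of 172 genes were called (13 higher and 12 lower), with 4.23% of all genes called. The sample titles carry a number that several libraries of a group have in common, and the labels do not explain it. With the libraries of each number summed, which leaves 10, 19 of 183 genes were called (9 higher and 10 lower), with 1.53% of all genes called. The region was chosen with the called genes of these data already known, so its share is a description of the region and not independent evidence.

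The typical gene of the region moved little. The median absolute log2 fold change of its 175 genes was 0.12, beside 0.09 over all tested genes and 0.08 over the rest of chromosome 5, with median standard errors (SE) of 0.08, 0.08 and 0.07. The upper tail was longer, with a 90th percentile of 0.55 in the region, 0.35 over all genes and 0.30 over the rest of the chromosome. The median signed log2 fold change of the region was -0.0047, so neither direction prevailed.

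For 12 of the 175 genes (6.86%) the lowest and highest CPM of the 7 WT hearts did not overlap those of the 10 bsg hearts. Of these 6 were higher and 6 lower in bsg, and all 12 were among the 27 called genes. Over all tested genes 0.779% were separated in this way, 0.426% higher and 0.353% lower, and on the rest of chromosome 5 it was 2 of 794. The same 60 to 110 Mb interval of the 15 other chromosomes that reach that far had between 1.80% and 5.12% of genes called and at most 4 separated genes.

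**Figure D1:**
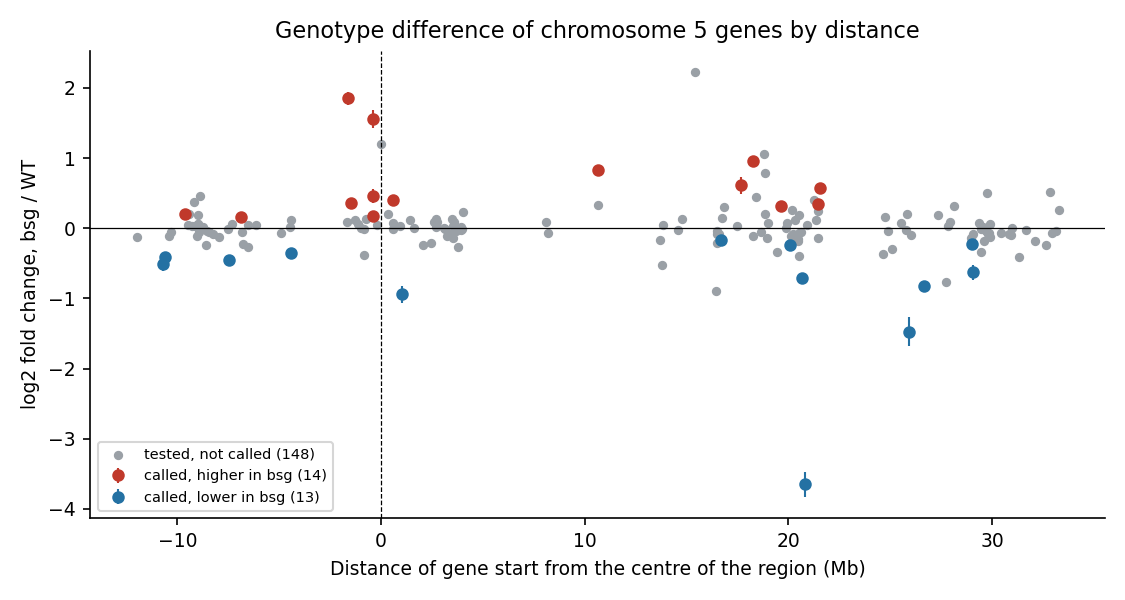
Each point is 1 of the 175 tested genes, placed by the distance of its start from the centre (horizontal axis, Mb) and by its log2 fold change of bsg over WT (vertical axis). Coloured points are the 27 called genes with their SE, and grey points are the 148 others. Red points (higher in bsg) prevail close to the centre and blue points (lower) at the right end.

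The called genes nearest the centre were mostly higher in bsg. Within 2.5 Mb on either side, 7 of 24 tested genes were called, 6 higher and 1 lower, beside 4.26% called over all tested genes. All 5 called on the lower side were higher, out of 13 tested (38.5%), and 2 of 11 (18.2%) were called on the upper side.

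The gene with the largest rise was MGP_C57BL6NJ_G0010161, a plus-strand gene of 24 exons from 75100630 to 75201676. In the 7 WT hearts it stood at 6.80 to 10.2 CPM (median 8.84), and in the 10 bsg hearts at 26.1 to 34.4 CPM (median 31.3). The lowest bsg heart was thus above the highest WT heart, and the fold change was 3.61 (log2 1.85, SE 0.09, adjusted p = 9.49e-10). The next tested gene, a minus-strand gene starting at 75202926, also rose, by 1.28-fold, from a WT median of 292 CPM to a bsg median of 365 CPM (adjusted p = 0.00981). Its groups overlapped, with 8 of 10 bsg hearts above every WT heart.

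Closer in, 3 consecutive tested genes rose. The largest change among them was in MGP_C57BL6NJ_G0030055 (76330161 to 76349070, minus strand, 8 exons). It had 3.28 to 7.31 CPM in WT (median 5.23) and 11.7 to 19.1 CPM in bsg (median 15.8). Every bsg heart exceeded every WT heart, with a fold change of 2.94 (log2 1.56, SE 0.13, adjusted p = 7.21e-07). The other two, plus-strand genes starting at 76299601 and 76318249, rose 1.13-fold and 1.38-fold (adjusted p = 0.0205 and 0.0144). Those 2 genes overlap in span on the same strand, the second lying within the first. A fragment in an exon of both could not be assigned to one of them, but whether the 2 genes share exons is not given here. With libraries summed by title number both lost their call (adjusted p by edgeR 0.213 and 0.167), and the first also lost it when WT male replicate 2 or 3 was left out.

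On the upper side a long minus-strand gene from 77309154 to 77641513 rose from 11.8 to 15.1 CPM in WT (median 13.8) to 15.8 to 20.05 CPM in bsg (median 17.7). The groups did not overlap although the change was only 1.32-fold (log2 0.41, SE 0.05, adjusted p = 0.000347). The other called gene there, on the minus strand from 77709116 to 77823365, fell. It had 11.2 to 22.1 CPM in WT (median 13.1) and 4.83 to 8.69 CPM in bsg (median 7.43), again without overlap, a 1.92-fold difference (log2 -0.94, SE 0.12, adjusted p = 0.000263). The highest WT value, 22.1 CPM, was that of WT female replicate 3.

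For comparison, the pair left out of these counts moved far more. Its upper gene, starting at 76681878, fell from a WT median of 229.5 CPM to a bsg median of 5.15 CPM. The lower one, starting at 76655452, had 0 to 0.0680 CPM in the WT hearts and 28.5 to 39.5 CPM in the bsg hearts. The gene that starts next above the centre, on the plus strand at 76700563, is tested but not called. Its bsg hearts ranged from 0.124 to 4.13 CPM and its WT hearts from 0.0646 to 1.104 CPM (log2 fold change 1.21, SE 0.74, adjusted p = 0.424).

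Further down the chromosome the changes were small, and most of the called genes fell. Between 2.5 and 5 Mb below the centre 1 of 4 tested genes was called, between 5 and 10 Mb 3 of 28, and between 10 and 15 Mb 2 of 5. None of these 6 reached 1.5-fold.

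A plus-strand gene of 16 exons from 72262084 to 72284569 fell from 43.5 to 53.4 CPM in WT (median 46.7) to 33.8 to 45.9 CPM in bsg (median 37.2). Here 9 of 10 bsg hearts were below every WT heart (log2 fold change -0.35, SE 0.05, adjusted p = 0.00123). The plus-strand gene of 31 exons from 69243552 to 69582379 is the farthest on this side whose groups did not overlap. It had 259.8 to 323 CPM in WT (median 291) and 173 to 234 CPM in bsg (median 211), a 1.37-fold fall (log2 -0.46, SE 0.06, adjusted p = 0.000111). It overlaps another tested gene on its strand.

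A pair of genes rose slightly in the same stretch. One, on the plus strand from 67071906 to 67103045, went from 55.0 to 66.7 CPM in WT to 62.1 to 72.2 CPM in bsg, with overlapping groups (1.15-fold, adjusted p = 0.0157). This call was lost in 3 of 26 alternatives. The other, starting at 69809519, rose 1.12-fold (adjusted p = 0.0286), the smallest change called in the region. Its call was lost under 10 of 26 alternative settings.

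The lowest called genes were consecutive among the tested ones, and both fell. A plus-strand gene from 66006726 to 66101624 had 6.43 to 9.69 CPM in WT (median 7.55) and 4.34 to 6.82 CPM in bsg (median 5.42), with 8 of 10 bsg hearts below every WT heart (log2 fold change -0.51, SE 0.10, adjusted p = 0.00900). Its minus-strand neighbour from 66110864 to 66179020 had 14.3 to 17.3 CPM in WT and 10.6 to 15.6 CPM in bsg (log2 fold change -0.41, SE 0.07, adjusted p = 0.00296). The first of them lies 10.7 Mb below the centre. The next called gene of the chromosome lies at 53916286, outside the region, and the 15 tested genes between these called genes held 0 calls by edgeR (4 at an unadjusted p under 0.05). Their largest change was a log2 fold change of -2.54, in an uncalled gene starting at 54212217. Only 1 of the 15, starting at 64699067, lies inside the region. With 15 tested genes in 12.1 Mb, and so few of them near the lowest called gene, the lower end of the called stretch is poorly placed.

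Above 77.7 Mb the calls stopped for a stretch. Of 24 tested genes between the called genes at 77709116 and 87339019, 0 were called by edgeR and 5 had an unadjusted p under 0.05. Their median absolute log2 fold change was 0.08 and the largest 0.27, with a median SE of 0.07. All but 2 of the 24 start between 78135861 and 80711395, so most of this gap of 9.63 Mb was hardly measured. Leaving aside genes under the filter, 1 gene in the gap was called in 4 of the 26 alternatives. These were DESeq2, the fit without WT female replicate 2, the fit without WT female replicate 4, and the fit of only the compared groups. That last fit had additive terms for sex and genotype. The fit without a filter also called a gene under the filter in this gap, starting at 77823051 (lower in bsg, adjusted p by edgeR 0.013).

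**Figure D2:**
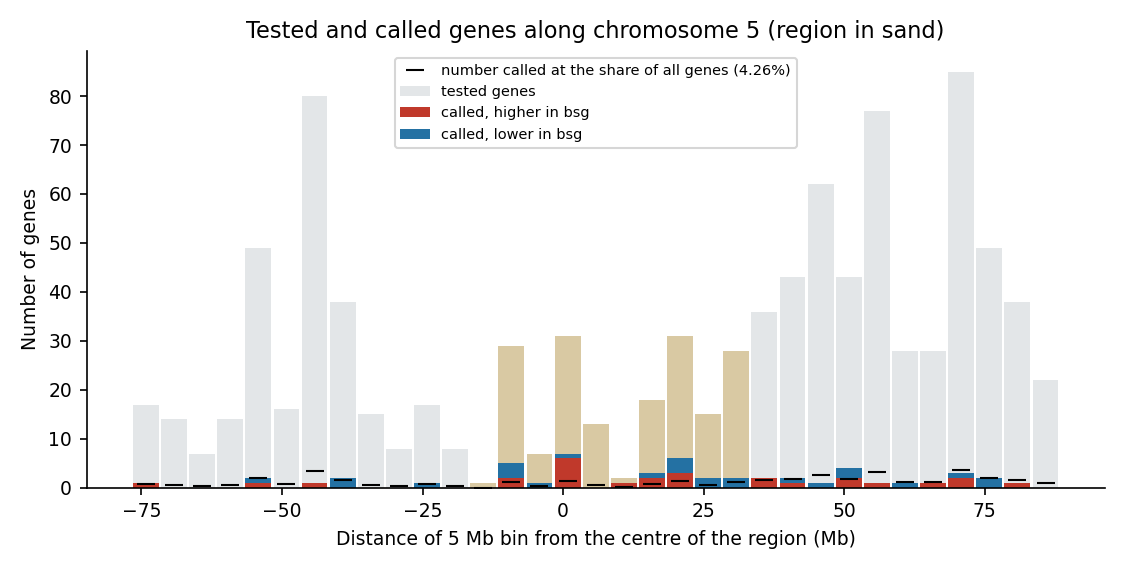
Bars give the number of tested genes in 5 Mb bins of chromosome 5 (vertical axis) by their distance from the centre (horizontal axis, Mb), in sand for the region and grey outside, with the called genes in red (higher in bsg) and blue (lower). Dashes mark how many would be called at the 4.26% of all tested genes, which a single call exceeds in a bin with few tested genes. The most calls, 7 of 31 and 6 of 31 tested genes, fall in the bins starting at 75 and 95 Mb, and the bins starting at 60 and 80 Mb hold none.

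Calls resumed at 87.3 Mb and went on to 105.8 Mb, with 14 of 70 tested genes, 6 higher and 8 lower. In the lower stretch, from 66.0 to 77.7 Mb, it was 13 of 56, 8 higher and 5 lower. The median absolute log2 fold change was 0.18 in the upper stretch and 0.11 in the lower one. Calls were not continuous within either stretch. In the upper one, 12 tested genes over 6.03 Mb after its first called gene held 0 calls by edgeR. A further 7 tested genes between 98231355 and 102603099 also held 0. In the lower one, 19 tested genes between 67071906 and 69243552 held 0 calls. The bounds of both stretches were set after the positions of the called genes were known, and both begin and end with a called gene.

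The first gene of the upper stretch was on the minus strand with 12 exons, from 87339019 to 87423191. It rose from 60.1 to 79.2 CPM in WT (median 70.8) to 96.7 to 153 CPM in bsg (median 125), without overlap (1.77-fold, log2 0.83, SE 0.07, adjusted p = 1.75e-06). It overlaps another tested gene on its strand. At 93369553 to 93421122, 16.7 Mb above the centre, a plus-strand gene fell 1.13-fold, from a WT median of 65.9 CPM to a bsg median of 56.96 CPM (adjusted p = 0.0248). This call was lost in 6 of 26 alternatives.

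Next came 2 consecutive tested genes on the minus strand that both rose. The stronger change was in the gene from 94943857 to 94953914 (6 exons), with 7.55 to 11.1 CPM in WT (median 9.35) and 14.99 to 19.3 CPM in bsg (median 17.8). The groups did not overlap (1.94-fold, log2 0.96, SE 0.07, adjusted p = 2.55e-07). The gene starting at 94365843 rose 1.53-fold (adjusted p = 0.00649).

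The largest change of the region lay 20.8 Mb from its centre. MGP_C57BL6NJ_G0030184, a plus-strand gene of 3 exons from 97507030 to 97510563, had 12.9 to 18.4 CPM in the WT hearts (median 15.7) and 0.444 to 2.06 CPM in the bsg hearts (median 1.25). This was 12.5-fold lower in bsg (log2 -3.65, SE 0.18, adjusted p = 5.33e-10), and every bsg heart was below every WT heart. Its neighbour among the tested genes, on the minus strand from 97346305 to 97416330, fell from 297 to 324 CPM in WT (median 310.4) to 174 to 203 CPM in bsg (median 193), with an SE of only 0.04 on a log2 fold change of -0.71 (adjusted p = 1.28e-09).

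Less than 1 Mb further on, a plus-strand gene of 6 exons from 98231355 to 98240323 rose from 21.3 to 28.0 CPM in WT (median 26.0) to 30.8 to 45.0 CPM in bsg (median 37.1). Again the groups did not overlap (1.48-fold, log2 0.57, SE 0.08, adjusted p = 0.000476). The gene at 98143686 beside it rose 1.27-fold (adjusted p = 0.00329). The other called genes between 96 and 99 Mb, at 96323166 and 96797435, differed by 1.25-fold (higher) and 1.18-fold (lower). Both calls were lost with libraries summed by title number (adjusted p by edgeR 0.0875 and 0.0868).

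All 4 genes called by edgeR more than 22 Mb above the centre fell. A gene starting at 109531532, at 32.8 Mb, was higher in bsg (log2 fold change 0.51, SE 0.15, adjusted p = 0.0597) and was called, as higher, in 4 of 26 alternatives. MGP_C57BL6NJ_G0006839, on the plus strand with 3 exons from 102603099 to 102610014, had 2.86 to 9.04 CPM in WT (median 4.05) and 1.14 to 2.29 CPM in bsg (median 1.68), a 2.77-fold fall without overlap (log2 -1.47, SE 0.21, adjusted p = 0.000575). The gene from 103371432 to 103530081, on the minus strand with 20 exons, had 204.9 to 251 CPM in WT (median 237) and 113 to 147 CPM in bsg (median 131), a 1.76-fold fall (log2 -0.82, SE 0.06, adjusted p = 8.88e-08). At 26.7 Mb from the centre it is the farthest gene of the region whose groups did not overlap.

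The outermost called gene lay 29.1 Mb above the centre, on the minus strand from 105784360 to 105860726. It had 6.21 to 12.5 CPM in WT (median 9.94) and 4.51 to 9.24 CPM in bsg (median 5.84), and 6 of 10 bsg hearts were below every WT heart (1.55-fold, log2 -0.63, SE 0.11, adjusted p = 0.00297). The called gene just before it, starting at 105735036, fell 1.16-fold (adjusted p = 0.0435). That call was lost in 17 of 26 alternatives.

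Calls were not absent beyond the upper border at 110 Mb. After 25 tested genes with 0 calls by edgeR (2 at an unadjusted p under 0.05), the next gene called on the chromosome started at 110073259, just outside. It rose from 388 to 478 CPM in WT (median 398) to 608 to 797 CPM in bsg (median 659.6), without overlap. In the 10 Mb above the region 4 of 79 tested genes were called (5.06%), and in the 10 Mb below it 1 of 25 (4.00%).

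**Figure D3:**
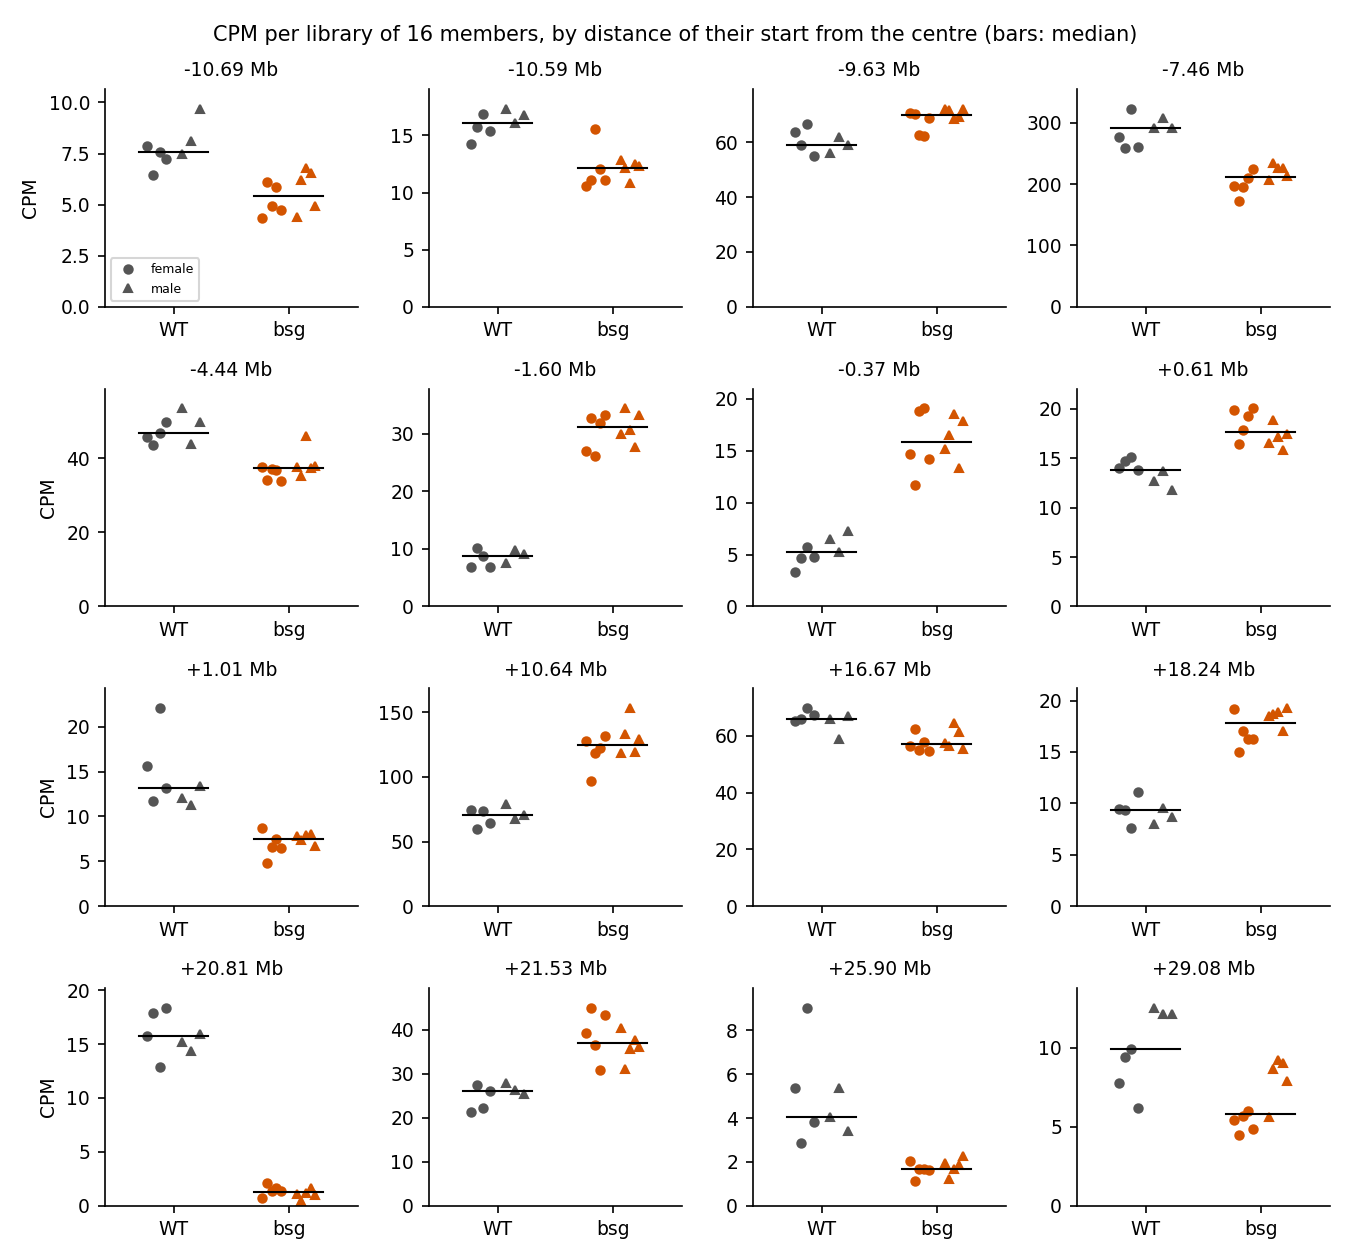
Each panel is 1 of 16 called genes, headed by the distance of its start from the centre, with CPM per library on the vertical axis from 0, WT in grey and bsg in orange, females as circles and males as triangles. Bars are medians, and the widest separation is at +20.81 Mb, where bsg hearts reach at most 2.06 CPM.

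By structure, 0 of the 24 tested single-exon genes were called by edgeR, against 27 of 151 with more exons. On the plus strand 13 of 84 genes were called and on the minus strand 14 of 91, with 7 higher on each. By abundance, 14 of the 58 most abundant tested genes were called, 8 of the middle 58 and 5 of the 59 least abundant. The median SE in these classes was 0.05, 0.07 and 0.21, so the same change is harder to call in the least abundant. Of the 14 called in the most abundant class, 11 were under 1.5-fold. Over all tested genes 4.26% were called, but that share is not given by exon number, strand or abundance. The counts in these classes are therefore not read as traits of the region. Per kb of exon, the mean WT level of the called genes ran from 0.765 to 55.9 CPM.

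In the order of tested genes, 11 of the 27 stood in 5 runs of 2 or 3 consecutive called genes. The genes of a run had the same direction, higher in 3 runs and lower in 2, and 1 run includes the pair that overlaps on the same strand. Whether neighbours were called together more often than by chance was not tested. Of the 27, 5 overlap the span of another tested gene on the same strand, and 3 that of one on the opposite strand, which was counted apart. Fragments in exons shared on the same strand could not be assigned to either gene, but which exons are shared is not given here.

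Large fold changes without a call came from genes that varied widely within a genotype. The gene starting at 92124427 had a median of 0 CPM in both genotypes, with a highest value of 7.53 CPM in WT and 30.2 CPM in bsg. Its log2 fold change was 2.23 with an SE of 1.75 (adjusted p = 0.557). Among the 228 genes under the filter, 2 had groups that did not overlap in CPM. One starts at 70023913 and had 0 counts in each WT heart and 1 to 6 in the bsg hearts. The other, at 93012448, had 2 to 6 counts in WT and 0 to 2 in bsg. In the fit without a filter, 3 genes under the filter were called: these 2 and 1 starting at 77823051, with 2 to 8 counts in WT and 0 to 3 in bsg. All 3 rest on very few counts, and the matching shares over all genes under the filter are not given here.

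The genotype difference was then examined in each sex, from separate libraries. In males 10 of the 175 genes were called (6 higher and 4 lower), with 0.546% of all genes called, and in females 17 (8 higher and 9 lower), with 1.80% of all genes called. Without WT and bsg female replicates 2 it was 14 in males (7 higher and 7 lower), with 0.737% of all genes called. In females it was then 16 (8 higher and 8 lower), with 1.65% of all genes called. Of the 27 genes called over both sexes, 9 were called in each sex and 9 in neither sex alone. All 27 had the same sign in males and females, a count that calling them over both sexes favours: over all called genes it was 638 of 639. Over all 175 genes 116 (66.3%) had the same sign, and over all tested genes it was 60.1%. Across the 175 genes, which are not independent replicates and share the scaling of their libraries, Pearson's r between the log2 fold changes of the sexes was 0.53 and Spearman's rho 0.45. On the rest of chromosome 5 they were 0.27 and 0.24. The 27 called genes carried much of this, which calling them on the mean of both sexes favours. Among the 148 others r was 0.05 and rho 0.22, and 89 (60.1%) had the same sign. The values for the rest of chromosome 5 and the 60.1% over all tested genes include called genes, so they are not matched to those of the 148.

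The 4 genes called with at least 2-fold had the same direction in each sex, with sizes that differed to varying degrees. MGP_C57BL6NJ_G0030184 fell by 3.802 (SE 0.26) on the log2 scale in males and by 3.49 (SE 0.24) in females. MGP_C57BL6NJ_G0010161 had a log2 fold change of 1.82 (SE 0.14) in males and 1.89 (SE 0.13) in females. MGP_C57BL6NJ_G0030055 had 1.35 (SE 0.19) in males and 1.77 (SE 0.17) in females. For MGP_C57BL6NJ_G0006839 the values were -1.25 (SE 0.31) in males and -1.69 (SE 0.29) in females. In the test of the interaction of sex and genotype 0 of the 175 genes passed by edgeR, and 0% of all genes did. The smallest adjusted p in the region was 0.888. Without adjustment 12 genes (6.86%) had p under 0.05, beside 5.17% of all genes. DESeq2 and limma-voom also called 0 genes of the region. Among the called genes the smallest unadjusted interaction p was at 94365843, with log2 0.90 (SE 0.18) in males and 0.32 (SE 0.16) in females (unadjusted p = 0.0248 for the interaction, adjusted p = 0.888 by edgeR).

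**Figure D4:**
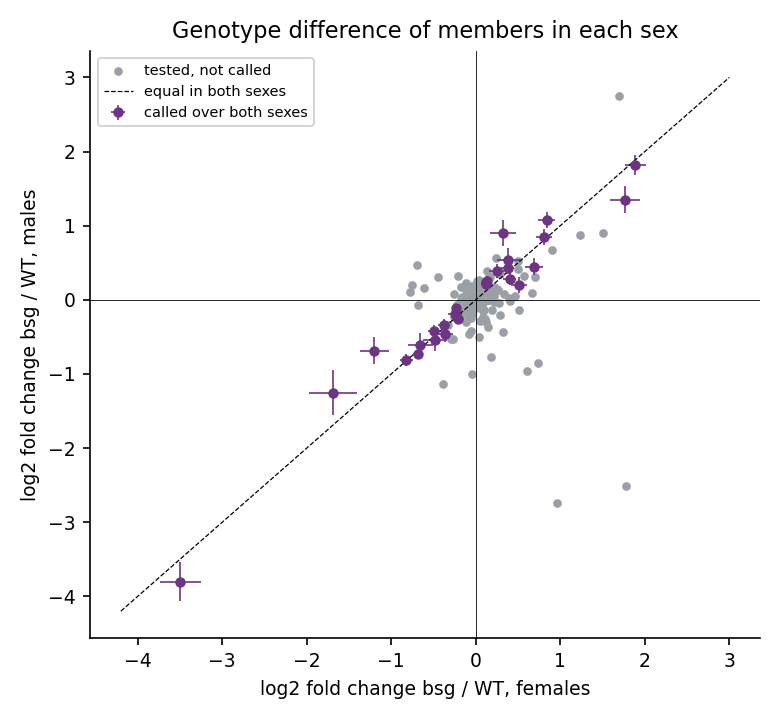
Each point is 1 of the 175 tested genes, with its log2 fold change of bsg over WT in females (horizontal axis) and in males (vertical axis). The 27 genes called over both sexes are purple with the SE in each sex and lie at the lower left and upper right, while grey points are the others and the dashed line marks equal change.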

How the data were processed

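The authors deposited raw fragment counts per gene for 17 heart libraries. Per the file headers, featureCounts 1.6.2 required both ends of a pair to align, with mapping quality of at least 10 and strand setting 2, on Ensembl release 109 of C57BL_6NJ_v1. The submitters' processing notes name GRCm39 instead. For the aligner, a name is not given in the sources used here. Per the design text, the samples are biological replicates, although it states fewer animals per group than the 5 bsg libraries of each sex.

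Genes were filtered with filterByExpr (minimum count 10, minimum total 15), scaled by TMM and tested in edgeR 4.0.16 (R 4.3.3), with genotype and sex making 4 groups of 17 libraries in one quasi-likelihood model. The contrast over both sexes is the mean of the male and female differences. All 4 contrasts were two-sided and adjusted over 15013 genes. The SE is derived from F and the log2 fold change. Pairs of libraries within a group differed by more than counting noise (chi-square per gene of at least 5.29). The model was tested on simulated data.

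The region, its centre and the lists were chosen with earlier results of these data known, the centre being the site of the largest changes. IDs are printed for the 2 largest called changes each way with a log2 CPM of at least 1. Given by position are the called gene of smallest p in each band of distance (bounds 2.5, 5, 10, 15 and 20 Mb), side and direction, and the outermost ones. The other 11 called genes fall outside this rule and were chosen after their values were seen. Alternatives were RLE and upper-quartile scaling, other filters, DESeq2 1.42.0, limma-voom 3.58.1, leaving out libraries, summing libraries by title number, fitting only the compared groups (over both sexes, additive terms for sex and genotype), stricter thresholds and gene midpoints.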

Additional observations from a re-analysis of the deposited data

Results flagged for a closer look

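Of 48 sets of CPM values (16 genes in the 3 groups of 4 or 5 libraries), 1 held a library far from the rest of its group, and chance gives about 1 such set in 20. For the gene starting at 72262084, bsg male replicate 3 stood at 45.9 CPM, within the WT range, where the other 4 bsg males had 35.2 to 38.0 CPM. Without that library the gene is still called (adjusted p by edgeR under 0.05).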

How the results depend on the processing

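Over both sexes 27 genes were called in the main analysis, with 4.26% of all genes called. The count was 22 to 28 with 1 library left out, with 2.06% to 4.61% of all genes called. Summing libraries by title number, which leaves 10 libraries, gave 19, with 1.53% of all genes called. At an adjusted p under 0.01 it was 20, and the matching share over all genes is not given here. Requiring a fold of at least 1.5 beside an adjusted p under 0.05 left 11, with 1.01% of all genes called. In males the count was 10 in the main analysis, with 0.546% of all genes called. Leaving out 1 library gave 7 to 12, with 0.253% to 0.748% of all genes called. By DESeq2 the count rose to 19, with 1.55% of all genes called. With the 2 male groups fitted alone it was 17, with 1.05% of all genes called, so the share over all genes rose as well. In females the count was 17 in the main analysis, with 1.80% of all genes called. Leaving out 1 library gave 13 to 18, with 0.841% to 2.22% of all genes called. By DESeq2 the count was 21, with 3.61% of all genes called. With the 2 female groups fitted alone it was 12, with 0.758% of all genes called, so fewer were then called in females than in males. With libraries summed by title number it was 8 in males and 12 in females, with 0.242% and 0.382% of all genes called. Of the 27 called genes, 19 were called in all 26 alternatives, 8 were lost in at least 1, and 0 changed direction. The lost ones all changed less than 1.5-fold. The outermost called gene above the centre was 29.1 Mb away, and 32.8 Mb away by DESeq2, by limma-voom, without WT female replicate 4 and with only the compared groups fitted (additive terms for sex and genotype), where that gene was higher in bsg. The 12 genes with separate groups became 14 without WT and bsg female replicates 2, and the matching share over all genes is not given here. Placing genes by midpoint left the count of calls in each band of distance as it was. No paired analysis was possible because the replicate numbers are only an order of the samples and the groups share no number in their titles. Precision is limited by counts for the 59 least abundant genes, where the median SE was 0.21, and by the lack of tested genes between the called stretches and below the lower one.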
